A study of Rattus norvegicus with 8 samples.

Results

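The genes described here are 46 rat genes whose products copy DNA. They were listed by function: 15 of origin licensing, 6 of helicase activation, 9 of the polymerases and primase, 9 of the sliding clamp, its loader and the single-strand binding protein RPA, 2 of Okazaki fragment maturation, and 5 of nucleotide supply. Members were found as the non-control probes whose accession is a RefSeq transcript of a listed gene. This gave 58 probes for 44 members, among 45598 probes on the array. No transcript was matched for Mcm5 and Rpa1. After a filter on signal over background, 41 members were among the 13474 features tested, a feature being a gene or, where no symbol was matched, an accession. Orc1 and Orc5 did not pass because their probes were well above background on none of the 8 arrays, and Pola1 because its probe was so on only 1.

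Replication origins are licensed when the origin recognition complex, Cdc6 and Cdt1 load the MCM helicase onto DNA, a step that geminin (Gmnn) blocks by binding Cdt1. Cdc45 and the GINS complex then turn the loaded helicase into an active one. Primase with polymerase alpha lays down primers, polymerases delta and epsilon extend them on the clamp PCNA, and ribonucleotide reductase, thymidylate synthase and thymidine kinase supply the deoxynucleotides. Many of these genes are transcribed under E2F control as cells enter S phase.

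Expression was measured in NR8383 cells, an established macrophage line from the lung lavage of a normal rat, kept as a partly adherent and partly floating culture in medium with fetal bovine serum. Zinc oxide (ZnO) was given for 4 h at 4 µg/mL or at 16 µg/mL, with 4 arrays for each dose, which the series' design calls biological replicates. The series' design also names untreated cells, which were not analysed here, so the comparison is the higher dose against the lower one. The sample descriptions give 20 passages for the cells at 4 µg/mL and 200 passages for those at 16 µg/mL, and the arrays of each dose were on a slide of their own. Dose, passage number, slide and scan therefore cannot be told apart in any difference given here, and all values come from a single cell line.

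Levels are log2 of the array's processed signal relative to that array's 75th percentile, and differences are the level at 16 µg/mL minus that at 4 µg/mL. Each array had 31.5% to 39.3% of its probes well above background, by the scanner software's own flag, and no spot was saturated. Arrays of the same dose correlated at 0.970 to 0.991, and arrays of different doses at 0.914 to 0.948, over all features. Replicate 4 of each dose had an area of locally low signal, covering 5223 of 62976 spots at 4 µg/mL and 2251 at 16 µg/mL. Of 12 macrophage markers, 10 were well above background on all 8 arrays and Adgre1 and Marco on none, with a summed linear level of 175 to 226 at 4 µg/mL and 158 to 243 at 16 µg/mL. Within that list Cd68 (-1.74, limma adjusted p = 2.1e-05) and Itgam (-0.52, adjusted p = 0.0142) fell and Spi1 (0.81, adjusted p = 0.00654) rose, and the part of these markers in the results was not tested. None of 8 alveolar epithelial markers was well above background on all arrays (summed level 0.178 to 0.262 and 0.160 to 0.245), and among 6 fibroblast markers Dcn was (0.291 to 0.523 and 0.253 to 0.334). None of 5 lymphocyte markers with a probe was so on all arrays (0.211 to 0.240 and 0.0832 to 0.148), and Cd3d fell (-1.22, adjusted p = 0.00521). Whether a difference reflects fewer cells in S phase or less RNA per cell cannot be told apart in RNA from whole cultures.

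Of the 41 members tested, 10 rose and 7 fell at 16 µg/mL relative to 4 µg/mL, and 24 did not pass the threshold (limma, Benjamini-Hochberg adjusted p under 0.05 over all features). The rises were 24.4% of the members, against 19.8% of all features, and the falls 17.1%, against 21.8%. All members have a symbol, and of the 7986 features with a symbol 23.5% rose and 16.8% fell. Calls in either direction covered 41.7% of all features. The doses did not overlap, array by array, for 14 of the 41 members (34.1%), against 39.9% of all features. Only Prim2 and Pole2 were called with a log2 difference of at least 1 in size, 4.88% of the members against 18.6% of all features. The median difference was 0.11 over the members and 0.01 over all features, and the median size of a difference was 0.46 and 0.47. Over features with a symbol the median difference was 0.08, and 14.1% were called with a log2 difference of at least 1 in size. The members' shares of rises and falls were near those of all features and nearer those of features with a symbol.

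**Figure D1:**
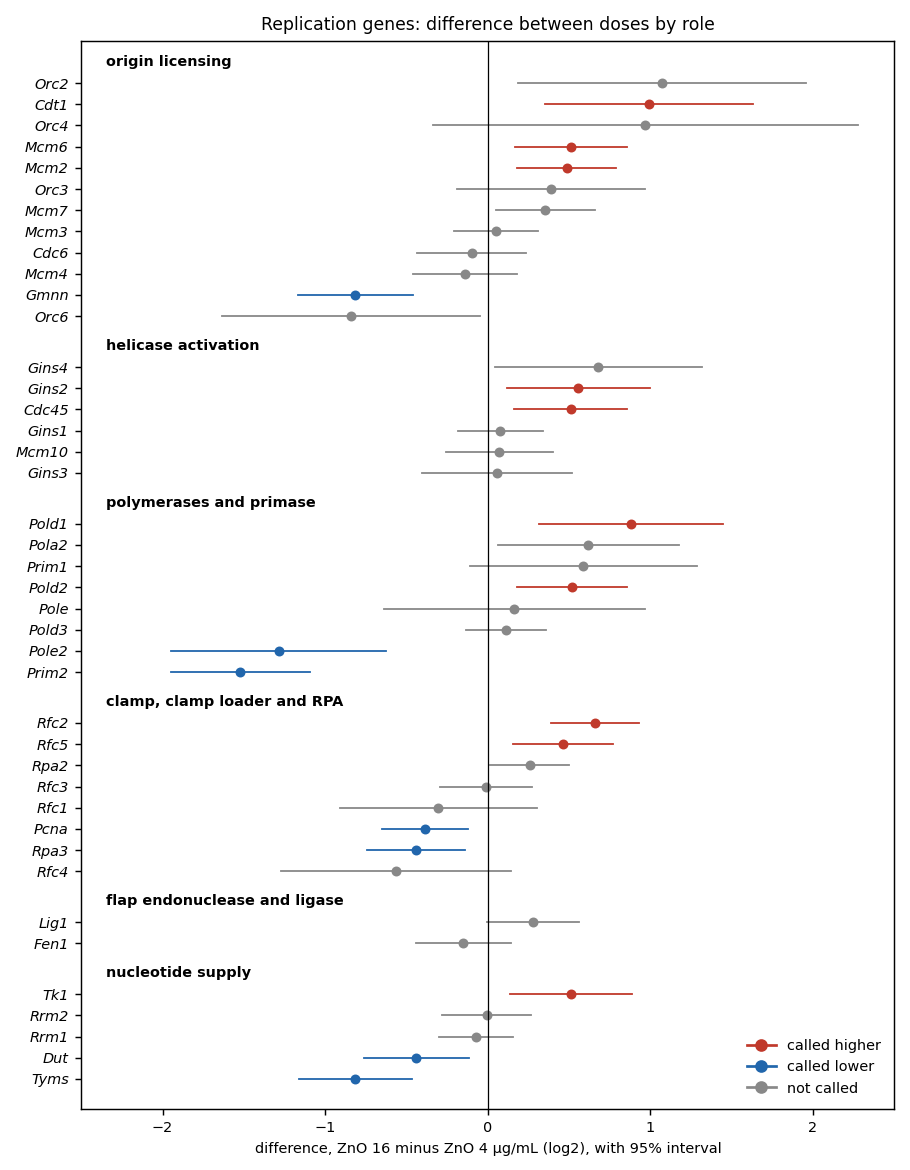
Difference between 16 and 4 µg/mL ZnO (log2, horizontal axis) for the 41 tested replication genes grouped by role, with 95% intervals as bars and colour for the call, 4 arrays a dose, signals scaled to each array's 75th percentile. Values run from -1.52 for Prim2 to 1.07 for Orc2, and the wide interval of Orc2 is not called; without scaling between arrays no member is called higher.

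The direction of the rises, the largest included, depends on how the arrays are scaled to each other: all 10 were negative on the spike-ins. Scaled to the 75th percentile, the median of all features was 0.01; without scaling it was -0.75, on the array's 7 spike-in RNA probes -1.15, and on the array median 0.17. The members called were 0 higher and 9 lower without scaling, 0 higher and 22 lower on the spike-ins, and 15 higher and 3 lower on the array median. Over all features the shares called higher and lower were 1.71% and 32.8% without scaling, 1.17% and 61.2% on the spike-ins, and 25.3% and 14.7% on the array median. The spike-in probes themselves differed between the slides by -0.65 to 1.57 after scaling, so no rise of a member exceeds their range. Of the falls, only those of Prim2, Pole2, Gmnn and Tyms lie outside it with the 75th percentile scaling. Pole2 passed the filter only through the lower dose. With normexp background correction Pole2 was at 0.075 and Gmnn at -0.31, values inside that range. The share of all features outside the range was not counted, so no conclusion is drawn from a fall lying outside it. All differences here are relative to the rest of the RNA on the array, and none is a change in RNA per cell.

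**Figure D2:**
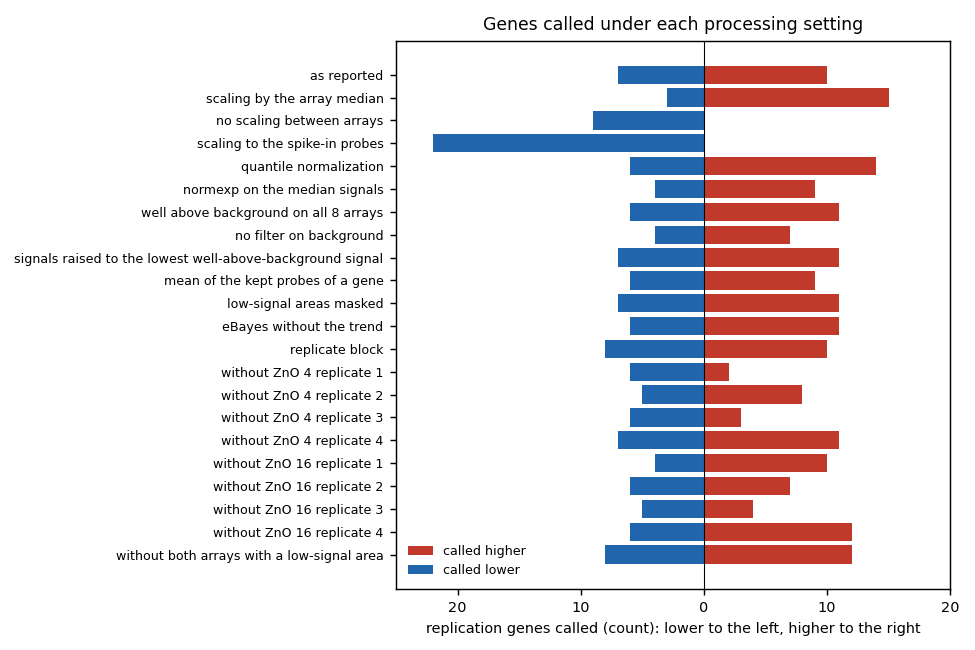
Number of replication genes called lower (bars to the left) and higher (bars to the right) under each processing setting, at an adjusted p under 0.05 with limma. The counts as reported are 10 higher and 7 lower; leaving out 1 array gave 2 to 12 higher and 4 to 7 lower, and without scaling or on the spike-ins no member was called higher.

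Among the 12 origin licensing genes tested, Cdt1, Mcm2 and Mcm6 rose, Gmnn fell, and 8 were not called, with a median difference of 0.37. Cdt1, the factor that brings the MCM helicase to the origin, had levels of -3.22, -2.96, -3.03 and -2.23 at 4 µg/mL and of -2.40, -1.57, -1.36 and -2.15 at 16 µg/mL. Replicate 4 at 4 µg/mL was higher than replicate 1 at 16 µg/mL, so the doses overlapped by this pair. The means were -2.86 ± 0.43 and -1.87 ± 0.48 (SD, n = 4 arrays each), a difference of 0.99 (SE 0.29, 1.99-fold, limma adjusted p = 0.0198). Gmnn, the inhibitor of Cdt1, had levels of -1.56, -1.91, -1.67 and -1.62 at 4 µg/mL and of -2.56, -2.46, -2.60 and -2.41 at 16 µg/mL. All 4 values at the higher dose were below all 4 at the lower dose. The means were -1.69 ± 0.15 and -2.51 ± 0.09 (SD, n = 4 each), and Gmnn fell by 0.82 (SE 0.16, 1.76-fold, limma adjusted p = 0.00267). The Cdt1 call was lost without replicate 1 or 3 at 4 µg/mL or replicate 3 at 16 µg/mL (0.82 to 0.94, adjusted p 0.0541 to 0.0575), and the Gmnn call with normexp background correction (-0.31, adjusted p = 0.0928).

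Cdt1 and Gmnn thus moved in opposite directions on the same arrays, except on the spike-ins, where Cdt1 was at -0.17. The difference between their levels within an array cancels any constant of that array, and only its change between doses is read, since probes differ in brightness. It does not cancel a difference between slides that varies from probe to probe, and the spike-in probes differed by -0.65 to 1.57 after scaling. The change of this pair, and of the pairs below, cannot be told apart from such a difference. Cdt1 minus Gmnn was -1.66, -1.05, -1.36 and -0.61 at 4 µg/mL and 0.16, 0.89, 1.24 and 0.26 at 16 µg/mL. Every array at the higher dose lay above every array at the lower dose, with a change of 1.81 in the mean (-1.17 ± 0.45 to 0.64 ± 0.52, SD, n = 4 each). This pair, like the other pairs of partners below, was chosen after its values were seen, so no test is given. Cdt1 and Gmnn, like Tk1 and Tyms below, were called in opposite directions, so a change in their difference is no support beyond those calls.

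Mcm2 and Mcm6 encode subunits of the ring-shaped replicative helicase. Mcm2 had levels of 3.89, 4.10, 4.12 and 4.31 at 4 µg/mL and of 4.44, 4.68, 4.82 and 4.42 at 16 µg/mL, with no overlap. It rose by 0.48 (4.11 ± 0.17 to 4.59 ± 0.20, SD, n = 4 each, SE of the difference 0.14, 1.40-fold, limma adjusted p = 0.0173), and a second Mcm2 probe gave 0.66 (SE 0.13). Mcm6 had levels of -0.45, 0.095, -0.05 and 0.23 at 4 µg/mL and of 0.45, 0.39, 0.49 and 0.54 at 16 µg/mL. The lower dose was the more variable here, and its highest array was still below the lowest array at the higher dose. Mcm6 rose by 0.51 (-0.04 ± 0.29 to 0.47 ± 0.06, SD, n = 4 each, SE of the difference 0.15, 1.43-fold, limma adjusted p = 0.0231). The Mcm2 call was lost without replicate 1 at 4 µg/mL (0.41, adjusted p = 0.0564), and that of Mcm6 without replicate 1 or 3 at 4 µg/mL (0.38 to 0.51, adjusted p 0.0539 to 0.0560). Normexp correction also ended both calls (0.34 with adjusted p = 0.0663 for Mcm2, 0.39 with 0.0801 for Mcm6).

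The other helicase subunits gave smaller differences. Mcm7 differed by 0.35 (95% interval 0.05 to 0.66, limma adjusted p = 0.0607), Mcm3 by 0.05 (-0.21 to 0.31, adjusted p = 0.754) and Mcm4 by -0.14 (-0.46 to 0.18, adjusted p = 0.460). The intervals of Mcm3 and Mcm4 leave out a rise as large as the 0.48 of Mcm2, while that of Mcm7 includes it. Cdc6, which works with the origin recognition complex to load the helicase, differed by -0.10 (-0.43 to 0.23, adjusted p = 0.620).

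The origin recognition complex gave dim probes and wide intervals. Orc2 had the largest positive difference of any member, 1.07 (95% interval 0.19 to 1.96), and missed the threshold (limma adjusted p = 0.0524). The probe was well above background on 1 array of the lower dose and 3 of the higher dose, and it was called in 9 of the 16 alternatives in which it was tested. Orc6 differed by -0.84 (-1.63 to -0.05, adjusted p = 0.0820) and Orc3 by 0.39 (-0.19 to 0.96, adjusted p = 0.258). Orc4 differed by 0.97 (-0.34 to 2.27, adjusted p = 0.210), with replicate 4 at 4 µg/mL at -5.64 and the other 3 arrays of that dose between -3.15 and -2.53.

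RefSeq promoter windows of assembly GRCr8, from 250 bases before to 50 bases after the start of transcription, were given for 39 members. They were searched on both strands for the E2F-type octamers TTTGGCGC, TTTCGCGC, TTTCCCGC and TTTGCCGC, which can overlap each other on opposite strands. At least 1 octamer was found in 19 of the 39 windows (48.7%), against 618 of all 27457 windows (2.25%). Among licensing genes it was 9 of 11 windows, among helicase activation genes 2 of 5, polymerases and primase 4 of 9, clamp, loader and RPA 2 of 8, and nucleotide supply 1 of 4. By call, it was 3 of 10 members that rose, 3 of 6 that fell and 10 of 19 not called. The octamer was thus found in members of every call. CCAAT was found in 22 of the 39 windows (56.4%, all windows 37.7%), GGGCGG in 25 (64.1%, all windows 34.9%), and TTTGAA or TTTAAA in 5 (12.8%, all windows 27.9%). A match is a description of the letters and not a site in use.

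Stretches of 90 bases upstream of the start are shown for 5 members with an octamer there, so that members that rose, fell and were not called can be compared. They are from RefSeq (GRCr8), written 5′ to 3′ on the gene's strand, and capitals mark the octamers of either strand. Mcm2 (chr4:122918095-122918184, minus strand) and Mcm6 (chr13:42404434-42404523, minus strand) rose, Tyms (chr9:120776084-120776173, minus strand) fell, and Mcm7 (chr12:22163219-22163308, minus strand) and Gins1 (chr3:160184830-160184919, plus strand) were not called. The stretches end 1 base before the start, except those of Mcm6 (bases 171 to 82 before it) and Mcm7 (bases 130 to 41 before it).
Mcm2: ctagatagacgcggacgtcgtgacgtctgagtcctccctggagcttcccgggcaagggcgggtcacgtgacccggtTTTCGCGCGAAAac
Mcm6: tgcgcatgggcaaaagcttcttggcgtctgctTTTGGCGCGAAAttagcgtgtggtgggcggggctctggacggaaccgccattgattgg
Tyms: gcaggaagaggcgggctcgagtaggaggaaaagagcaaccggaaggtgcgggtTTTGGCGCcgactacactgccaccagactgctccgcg
Mcm7: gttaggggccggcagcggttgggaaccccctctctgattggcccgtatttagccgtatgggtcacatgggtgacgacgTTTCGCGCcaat
Gins1: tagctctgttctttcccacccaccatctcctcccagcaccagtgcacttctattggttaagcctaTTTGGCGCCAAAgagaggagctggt
Mcm2, Mcm6 and Gins1 hold octamers on both strands that share bases, while Tyms and Mcm7 show a single octamer in the stretch.

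All 6 helicase activation genes were tested, and Cdc45 and Gins2 rose, with a median difference of 0.29 over the 6. Cdc45, which joins MCM and GINS in the active helicase, had levels of 2.26, 2.43, 2.40 and 1.80 at 4 µg/mL and of 2.57, 2.88, 2.86 and 2.62 at 16 µg/mL. Replicate 4 at 4 µg/mL was the lowest array, and the doses did not overlap. Cdc45 rose by 0.51 (2.22 ± 0.29 to 2.73 ± 0.16, SD, n = 4 each, SE of the difference 0.16, 1.42-fold, limma adjusted p = 0.0250), and by 0.37 with the areas of low signal masked (adjusted p = 0.0437). Gins2, a subunit of GINS, had levels of -1.94, -1.55, -1.55 and -2.06 at 4 µg/mL and of -1.62, -0.97, -1.01 and -1.29 at 16 µg/mL. Replicate 1 at the higher dose lay below replicates 2 and 3 at the lower dose. Gins2 rose by 0.56 (-1.78 ± 0.26 to -1.22 ± 0.30, SD, n = 4 each, SE of the difference 0.20, 1.47-fold, limma adjusted p = 0.0452).

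The calls of Gins2 and Cdc45 depended on single arrays to different degrees. That of Gins2 was lost on leaving out any array but replicate 1 at 16 µg/mL (7 of 8, differences 0.46 to 0.63, adjusted p 0.0511 to 0.112), with normexp correction (0.43, adjusted p = 0.0575), with no filter on background (adjusted p = 0.104) and without both arrays with an area of low signal (0.48, adjusted p = 0.107). That of Cdc45 was lost without replicate 1 at 4 µg/mL or replicate 2 or 3 at 16 µg/mL (0.46 to 0.52, adjusted p 0.0506 to 0.0630). Gins4 differed by 0.68 (95% interval 0.04 to 1.32, limma adjusted p = 0.0805), where replicate 4 at 4 µg/mL stood at -0.38 and the other 3 arrays of that dose at 0.86 to 1.08. Gins1, Gins3 and Mcm10, which helps the helicase unwind the origin, differed by 0.08, 0.06 and 0.07, with adjusted p of 0.629, 0.844 and 0.730.

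The largest fall of any member was in a primase gene. Of 8 polymerase and primase genes tested, Pold1 and Pold2 rose, Prim2 and Pole2 fell, and 4 were not called, with a median difference of 0.34. Prim2, the large regulatory subunit of primase, had levels of 1.55, 1.69, 1.76 and 1.31 at 4 µg/mL and of 0.60, 0.05, -0.19 and -0.24 at 16 µg/mL. Every array at the higher dose was lower than every array at the lower dose. Prim2 fell by 1.52 (1.58 ± 0.20 to 0.06 ± 0.39, SD, n = 4 each, SE of the difference 0.19, 2.87-fold, limma adjusted p = 0.000195). Its call was kept in all 21 alternatives, those without scaling and on the spike-ins included. Prim1, the catalytic partner of Prim2, differed by 0.59 (95% interval -0.11 to 1.28, adjusted p = 0.158), and by 0.20 with the areas of low signal masked (adjusted p = 0.262). Its probe lay inside the area of low signal on replicate 4 at 4 µg/mL, where it stood at -0.09 against 1.35 to 1.50 on the other 3 arrays.

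The subunits of primase thus gave different values on the same arrays. Prim1 minus Prim2 was -0.08, -0.34, -0.27 and -1.40 at 4 µg/mL and 1.01, 1.69, 1.58 and 2.07 at 16 µg/mL. The doses did not overlap, and the mean changed by 2.11 (-0.52 ± 0.59 to 1.59 ± 0.44, SD, n = 4 each), or by 1.82 without replicate 4 at 4 µg/mL.

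Pole2, the second subunit of polymerase epsilon, had levels of -3.42, -2.82, -3.02 and -2.96 at 4 µg/mL and of -5.09, -3.94, -4.20 and -4.15 at 16 µg/mL. The doses did not overlap, but the probe was dim: all 4 arrays of the lower dose and only 1 of the higher dose had it well above background. Pole2 fell by 1.29 (-3.06 ± 0.26 to -4.34 ± 0.51, SD, n = 4 each, SE of the difference 0.30, limma adjusted p = 0.00672). It passed the filter only through the lower dose, 3 of its 4 values at the higher dose are near background, and the size of its fall is therefore uncertain. With normexp correction the value was 0.075 (adjusted p = 0.823), and with dim signals raised to the lowest signal well above background -1.01 (adjusted p = 0.00728). Pole, the catalytic subunit of the same polymerase, differed by 0.16 (95% interval -0.64 to 0.96, adjusted p = 0.743).

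Pold1, the catalytic subunit of polymerase delta, had levels of 1.36, 1.82, 1.60 and 1.97 at 4 µg/mL and of 2.22, 3.11, 2.99 and 1.96 at 16 µg/mL. Replicates 2 and 3 at the higher dose stood well above the rest, and its replicate 4 lay just below replicate 4 of the lower dose. Pold1 rose by 0.88 (1.69 ± 0.27 to 2.57 ± 0.57, SD, n = 4 each, SE of the difference 0.26, 1.84-fold, limma adjusted p = 0.0194). Pold2, its accessory subunit, had levels of 2.70, 3.06, 2.76 and 3.075 at 4 µg/mL and of 3.34, 3.59, 3.63 and 3.10 at 16 µg/mL, with no overlap. Pold2 rose by 0.52 (2.90 ± 0.20 to 3.42 ± 0.25, SD, n = 4 each, SE of the difference 0.15, 1.43-fold, limma adjusted p = 0.0203). Both calls were lost without replicate 1 or 3 at 4 µg/mL or replicate 3 at 16 µg/mL (0.74 to 0.85 with adjusted p 0.0509 to 0.0580 for Pold1, 0.44 to 0.47 with 0.0565 to 0.0626 for Pold2), and that of Pold2 with normexp correction (0.28, adjusted p = 0.137). Pold3, a further subunit, differed by 0.11 (95% interval -0.14 to 0.36, adjusted p = 0.448), and Pola2, of polymerase alpha, by 0.62 (0.06 to 1.17, adjusted p = 0.0711).

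**Figure D3:**
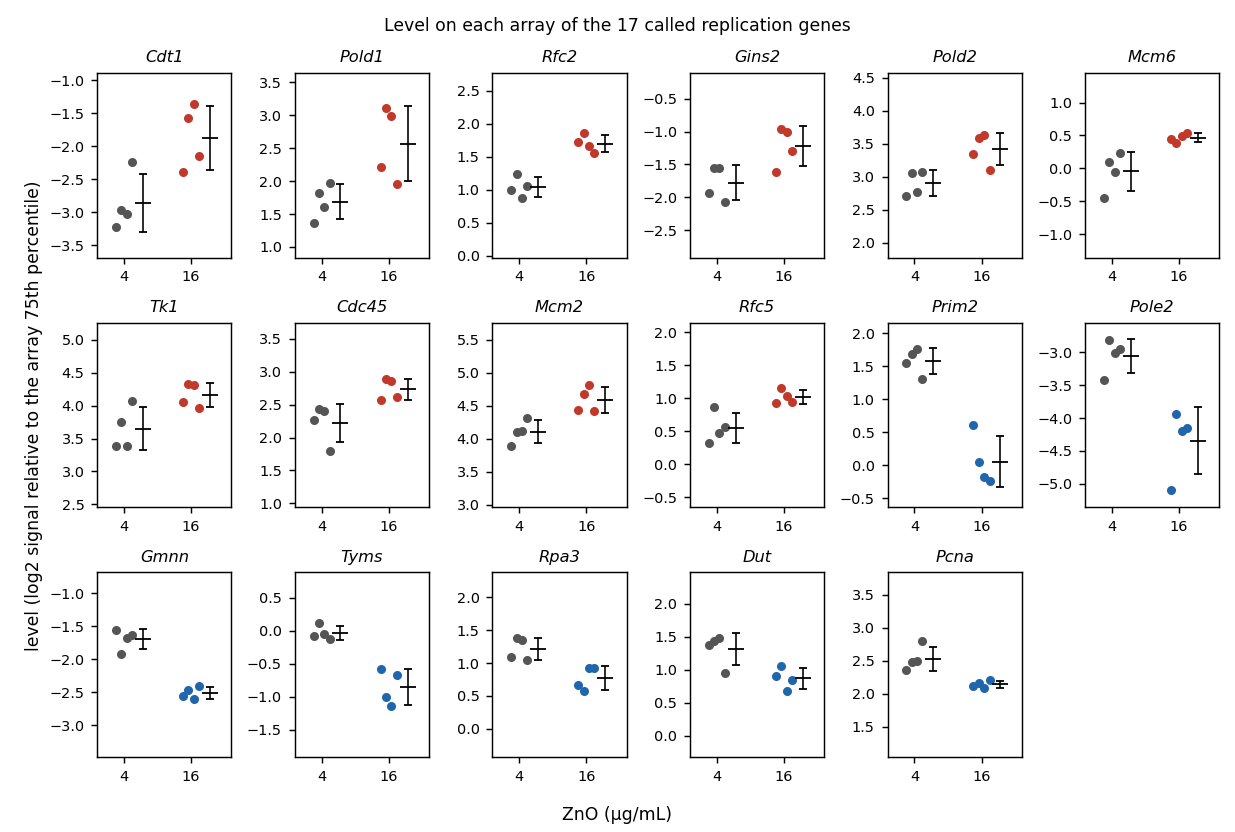
Level on each array (points, log2 signal relative to the array's 75th percentile) at 4 and 16 µg/mL ZnO for the 17 replication genes called between the doses, 4 arrays a dose, 1 panel a gene, with the mean and SD of each dose as a dash with a bar. Prim2 lies at 1.31 to 1.76 at 4 µg/mL and at -0.24 to 0.60 at 16 µg/mL, whereas the doses overlap for Cdt1, Gins2, Pold1, Tk1 and Dut; levels are not comparable between panels, and the 10 rises are not called without scaling between arrays.

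Among the 8 clamp, loader and RPA genes tested, Rfc2 and Rfc5 rose, Pcna and Rpa3 fell, and 4 were not called, with a median difference of -0.16. Rfc2, a small subunit of the loader that opens the clamp, had levels of 0.995, 1.23, 0.88 and 1.06 at 4 µg/mL and of 1.72, 1.85, 1.67 and 1.56 at 16 µg/mL, with no overlap. Rfc2 rose by 0.66 (1.04 ± 0.15 to 1.70 ± 0.12, SD, n = 4 each, SE of the difference 0.12, 1.58-fold, limma adjusted p = 0.00199). Its call was kept in 19 of 21 alternatives, all but those without scaling (-0.10) and on the spike-ins (-0.50). Rfc5, another small subunit, had levels of 0.325, 0.86, 0.47 and 0.56 at 4 µg/mL and of 0.925, 1.16, 1.04 and 0.94 at 16 µg/mL. Replicate 2 was the highest array of each dose, and the doses did not overlap. Rfc5 rose by 0.46 (0.55 ± 0.23 to 1.02 ± 0.11, SD, n = 4 each, SE of the difference 0.14, 1.38-fold, limma adjusted p = 0.0221). Its call was lost without replicate 1 or 3 at 4 µg/mL or replicate 2 at 16 µg/mL (0.39 to 0.43, adjusted p 0.0559 to 0.0675), with normexp correction (0.21, adjusted p = 0.228) and with no filter on background (adjusted p = 0.0510).

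Rfc1, Rfc3 and Rfc4, the other loader subunits, were not called. Rfc4 had levels of -0.19, -0.17, -0.23 and -1.71 at 4 µg/mL and of -1.30, -1.11, -1.27 and -0.87 at 16 µg/mL. Replicate 4 at 4 µg/mL stood below all the other arrays, and the other 3 of that dose above all 4 of the higher dose. The difference was -0.56 (95% interval -1.27 to 0.14, limma adjusted p = 0.181), and -0.94 without that array (adjusted p = 0.00117). Rfc2 minus Rfc4 changed between the doses by 1.22 with all arrays, where the doses overlapped, and by 1.61 without that array. Rfc3 differed by -0.01 (95% interval -0.30 to 0.27, adjusted p = 0.947) and Rfc1, the large subunit, by -0.30 (-0.91 to 0.30, adjusted p = 0.396).

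Pcna, the clamp itself, had levels of 2.36, 2.48, 2.49 and 2.79 at 4 µg/mL and of 2.12, 2.16, 2.09 and 2.21 at 16 µg/mL. All 4 values at the higher dose were lower than all 4 at the lower dose, by a small margin. Pcna fell by 0.39 (2.53 ± 0.18 to 2.14 ± 0.05, SD, n = 4 each, SE of the difference 0.12, 1.31-fold, limma adjusted p = 0.0248). The call was lost without replicate 4 at 4 µg/mL or replicate 1 or 3 at 16 µg/mL (-0.38 to -0.30, adjusted p 0.0506 to 0.0565), on the array median (-0.22, adjusted p = 0.351), with quantile normalization (-0.31, adjusted p = 0.0591) and with no filter on background (adjusted p = 0.0727). Rpa3, the smallest RPA subunit, had levels of 1.09, 1.37, 1.35 and 1.05 at 4 µg/mL and of 0.67, 0.58, 0.92 and 0.93 at 16 µg/mL, with no overlap. Rpa3 fell by 0.44 (1.22 ± 0.17 to 0.77 ± 0.18, SD, n = 4 each, SE of the difference 0.14, 1.36-fold, limma adjusted p = 0.0246), and a second probe gave -0.87 (SE 0.14). Its call was lost without replicate 2 or 3 at 4 µg/mL or replicate 1 or 2 at 16 µg/mL (-0.41 to -0.38, adjusted p 0.0576 to 0.0720), on the array median (-0.28, adjusted p = 0.317), with normexp correction (-0.29, adjusted p = 0.114) and with no filter on background (adjusted p = 0.0584).

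Rpa2, the middle subunit of RPA, differed by 0.26 (95% interval 0.01 to 0.50, limma adjusted p = 0.0828). Within arrays, Rpa2 minus Rpa3 was 1.10, 0.91, 0.71 and 1.21 at 4 µg/mL and 1.88, 1.96, 1.40 and 1.49 at 16 µg/mL. The doses did not overlap, and the mean changed by 0.70 (0.98 ± 0.22 to 1.68 ± 0.28, SD, n = 4 each). Neither gene of Okazaki fragment maturation was called. Fen1, the flap endonuclease, differed by -0.15 (-0.44 to 0.14, adjusted p = 0.385), and Lig1, the ligase that seals nicks, by 0.28 (-0.0043 to 0.56, adjusted p = 0.104).

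All 5 nucleotide supply genes were tested: Tyms and Dut fell, Tk1 rose, and Rrm1 and Rrm2 were not called, with a median difference of -0.07. Tyms, which makes thymidylate from deoxyuridylate, had levels of -0.09, 0.12, -0.05 and -0.12 at 4 µg/mL and of -0.58, -1.01, -1.15 and -0.67 at 16 µg/mL. The lower dose was tight and lay wholly above the higher dose. Tyms fell by 0.81 (-0.04 ± 0.10 to -0.85 ± 0.27, SD, n = 4 each, SE of the difference 0.16, 1.76-fold, limma adjusted p = 0.00253), and the one alternative that ended its call was the array median (-0.65, adjusted p = 0.0533). Tk1, which salvages thymidine, had levels of 3.39, 3.75, 3.39 and 4.06 at 4 µg/mL and of 4.05, 4.32, 4.31 and 3.96 at 16 µg/mL. Replicate 4 was the highest array of the lower dose and the lowest of the higher dose, where the doses overlapped. Tk1 rose by 0.51 (3.65 ± 0.32 to 4.16 ± 0.18, SD, n = 4 each, SE of the difference 0.17, 1.43-fold, limma adjusted p = 0.0337). Its call was lost without replicate 1, 2 or 3 at 4 µg/mL or replicate 2 or 3 at 16 µg/mL (0.43 to 0.55, adjusted p 0.0536 to 0.0980), with the replicate number as a block (adjusted p = 0.0514), without the trend in the fit (0.0545) and with no filter on background (0.0546). The mean of its probes gave 0.30 (adjusted p = 0.115).

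Dut, which removes dUTP and yields the substrate of Tyms, had levels of 1.37, 1.43, 1.48 and 0.96 at 4 µg/mL and of 0.91, 1.05, 0.67 and 0.85 at 16 µg/mL. Replicate 4 at 4 µg/mL lay within the range of the higher dose. Dut fell by 0.44 (1.31 ± 0.24 to 0.87 ± 0.16, SD, n = 4 each, SE of the difference 0.15, 1.36-fold, limma adjusted p = 0.0345). The call was lost without any array but replicate 4 at 4 µg/mL and replicate 2 at 16 µg/mL (6 of 8, -0.45 to -0.37, adjusted p 0.0558 to 0.0964), on the array median (-0.27, adjusted p = 0.321), with the mean of its probes (-0.27, adjusted p = 0.0704), with no filter on background (adjusted p = 0.0719) and without the trend in the fit (0.0533). Tk1 minus Tyms within arrays ran from 3.44 to 4.19 at 4 µg/mL and from 4.63 to 5.46 at 16 µg/mL, a change of 1.33 in the mean with no overlap. Such a change follows from the opposite calls of Tk1 and Tyms, and a second Tk1 probe gave a difference of 0.09.

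Ribonucleotide reductase makes deoxynucleotides from ribonucleotides, and its genes had narrow intervals around 0. Rrm1, the large subunit, had levels of 3.37, 3.50, 3.55 and 3.61 at 4 µg/mL and of 3.50, 3.42, 3.41 and 3.40 at 16 µg/mL. Its difference was -0.07 (95% interval -0.30 to 0.15, limma adjusted p = 0.598). Rrm2, the small subunit, had levels of 4.21, 4.28, 4.34 and 4.48 at 4 µg/mL and of 4.56, 4.29, 4.16 and 4.27 at 16 µg/mL. The doses overlapped for both genes, and Rrm2 differed by -0.01 (-0.28 to 0.27, adjusted p = 0.963). These intervals leave out a fall as large as the 0.81 of Tyms in either subunit.

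Set side by side, the roles had different mixtures of calls, and the difference between roles was not tested. Licensing genes had 3 rises and 1 fall among 12 (25.0% and 8.33%), and polymerases and primase 2 and 2 among 8 (25.0% and 25.0%). Nucleotide supply had 1 and 2 among 5 (20.0% and 40.0%). Over all features the shares were 19.8% and 21.8%, and over features with a symbol 23.5% and 16.8%. The shares of rises were near these, and the falls were only 1 or 2 genes in each of these roles. Leaving out 1 array gave 1 to 4 rises in licensing (1 without replicate 1 or 3 at 4 µg/mL), 0 to 3 among polymerases and primase (0 without replicate 1 or 3 at 4 µg/mL or replicate 3 at 16 µg/mL), and 0 to 2 in helicase activation (0 without replicate 1 at 4 µg/mL or replicate 2 or 3 at 16 µg/mL). The 1 fall called in licensing was Gmnn, the inhibitor of Cdt1. Of the 12 licensing genes, 8 had positive and 4 negative differences. Orc6, of the origin recognition complex, differed by -0.84 without a call, on a probe that passed the filter only through the lower dose. The Orc3 probe on the curated transcript, which does not stand for the gene, differed by -0.78 (limma adjusted p over probes 0.0273). Medians were positive for licensing (0.37), polymerases and primase (0.34) and helicase activation (0.29), and negative for clamp, loader and RPA (-0.16) and nucleotide supply (-0.07), with the 75th percentile scaling; all are negative without scaling or on the spike-ins, and on the array median clamp, loader and RPA (0.01) and nucleotide supply (0.09) are positive.

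**Figure D4:**
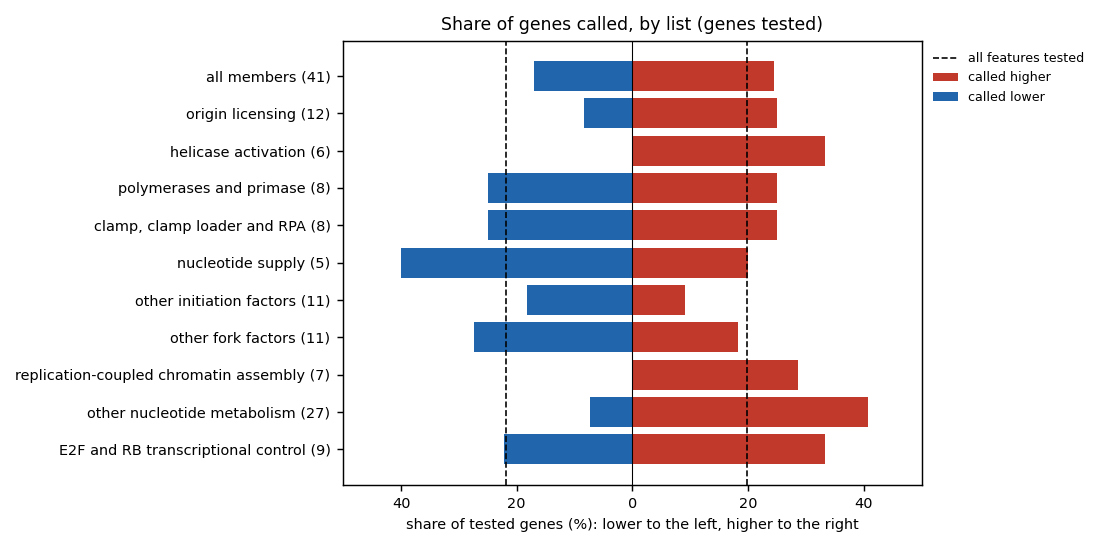
Share of tested genes called lower (bars to the left) and higher (bars to the right) for the replication genes together, their roles and each list of neighbouring genes. The role of Okazaki fragment maturation (2 genes tested, 0 called) is not drawn. Dashed lines are at the shares over all features (21.8% lower, 19.8% higher). The other nucleotide metabolism genes have 40.7% higher and 7.41% lower, and nucleotide supply 20.0% higher and 40.0% lower, over 27 and 5 genes, with signals scaled to the 75th percentile; leaving out 1 array gives 5 to 10 rises among the other nucleotide metabolism genes in place of 11, and without scaling neither list has a gene called higher.

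For 10 members more than 1 probe passed the filter, and the brightest stood for the gene. Probes gave opposite signs for Mcm4, Orc3 and Mcm3. Mcm4 had levels of 1.09, 0.89, 1.19 and 1.05 at 4 µg/mL and of 1.10, 0.65, 0.76 and 1.15 at 16 µg/mL with the brightest probe. A second bright probe gave -0.16 (adjusted p over probes 0.387), close to the -0.14 of the first. The third, dim probe had levels of -3.01, -3.70, -3.44 and -5.24 at 4 µg/mL and of -1.72, -2.78, -2.91 and -2.49 at 16 µg/mL. Its difference was 1.37 (SE 0.46, limma adjusted p = 0.0338), and 0.91 with the areas of low signal masked, where the call was lost (adjusted p = 0.0672). Only 2 arrays of the lower dose had it well above background.

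The brightest Orc3 probe, on a predicted transcript, had levels of -2.88, -3.63, -3.78 and -3.57 at 4 µg/mL and of -2.82, -3.22, -3.38 and -2.89 at 16 µg/mL. The other, on the curated transcript, had levels of -3.31, -2.79, -2.91 and -2.97 at 4 µg/mL and of -3.84, -3.37, -4.20 and -3.68 at 16 µg/mL. The first overlapped between the doses (0.39), whereas the second did not and differed by -0.78 (SE 0.25, limma adjusted p = 0.0273). Mcm3 gave 0.05 with a bright probe, with levels of 2.41, 2.63, 2.71 and 2.74 at 4 µg/mL and of 2.74, 2.69, 2.74 and 2.52 at 16 µg/mL. Its dim probe gave -0.16 (adjusted p = 0.637), with levels of -3.79, -3.64, -3.74 and -3.05 at 4 µg/mL and of -3.91, -3.60, -3.61 and -3.71 at 16 µg/mL. Neither Mcm3 probe was called.

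Second probes of the other members kept the sign of the first and differed in size. Tk1 gave 0.09 (SE 0.14, adjusted p = 0.635) with its second probe and Dut -0.11 (SE 0.14, adjusted p = 0.565), so both calls rest on 1 of 2 probes. Lig1 gave 0.39 (adjusted p = 0.0582), Rrm1 -0.28 (adjusted p = 0.242) and Rrm2 -0.09 (adjusted p = 0.779) with the second probe, none of them called.

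**Figure D5:**
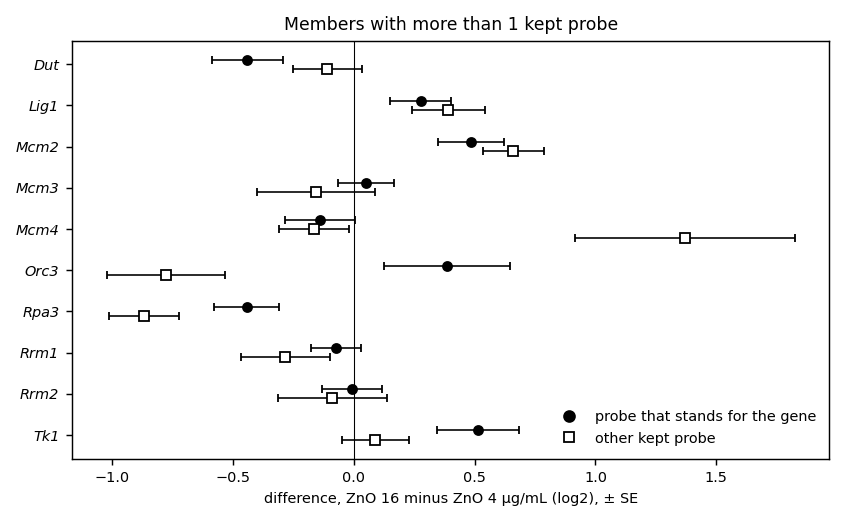
Difference between 16 and 4 µg/mL ZnO (log2, horizontal axis, bars ± SE) of each probe for the 10 replication genes with more than 1 probe above background, with filled circles for the brightest probe and open squares for the others, signals scaled to the 75th percentile. Mcm2 and Rpa3 have probes on the same side of 0 that are both called, while Mcm4, Orc3 and Mcm3 have probes on both sides.

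Genes that act beside the members were counted from lists by function. The shares to set beside these lists are 19.8% higher and 21.8% lower over all features, and 23.5% and 16.8% over features with a symbol. No list was tested against them. Leaving out 1 array gave 0 to 1 rises and 1 to 2 falls among other initiation factors, 1 to 4 and 3 to 4 among other fork factors, 1 to 2 and 0 in chromatin assembly, and 2 to 3 and 1 to 3 among E2F and RB genes. Without scaling or on the spike-ins, 0 genes were called higher among other initiation factors, chromatin assembly, and E2F and RB genes. Among other fork factors it was 1. Falls on the spike-ins were 6 among other initiation factors, 7 among other fork factors, 3 in chromatin assembly, and 5 among E2F and RB genes. Of 11 other initiation factors tested, 1 rose and 2 fell (9.09% and 18.2%, median 0.14). Cdc7, the kinase that fires loaded helicases, rose by 1.72 (-3.51 ± 1.50 to -1.80 ± 0.28, SD, n = 4 each, limma adjusted p = 0.0410). Replicate 4 at 4 µg/mL was at -5.72 for Cdc7 and the others of that dose between -3.17 and -2.54; with the areas of low signal masked the rise was 0.98 (adjusted p = 0.00787). The Cdc7 call was lost in 5 of the 8 fits without 1 array (without replicate 2 at 4 µg/mL or any replicate at 16 µg/mL, 1.61 to 1.84, adjusted p 0.0608 to 0.0794). Wdhd1, which ties polymerase alpha to the helicase, was well above background on 2 arrays of the higher dose and passed the filter only through the lower one. It fell by 1.20 (SE 0.37, adjusted p = 0.0258), and gave 0.09 with normexp correction (adjusted p = 0.728). Its call was also lost without replicate 3 or 4 at 4 µg/mL or replicate 2 or 3 at 16 µg/mL (-1.12 to -0.97, adjusted p 0.0570 to 0.0711), and with dim signals raised it was -0.55 (adjusted p = 0.0725). Ccne1, cyclin E, fell by 0.43 (SE 0.12, adjusted p = 0.0182), with -0.40 without replicate 1 at 4 µg/mL (adjusted p = 0.0522) and -0.26 on the array median (adjusted p = 0.255).

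Of 11 other fork factors tested, 2 rose and 3 fell (18.2% and 27.3%, median -0.05). Timeless, which keeps helicase and polymerase together at the fork, fell by 1.29 (-1.08 ± 0.16 to -2.37 ± 0.36, SD, n = 4 each, SE of the difference 0.20, limma adjusted p = 0.000737). Rnaseh2b, of the enzyme that removes ribonucleotides from DNA, fell by 0.81 (SE 0.15, adjusted p = 0.00207). Ssbp1, the mitochondrial single-strand binding protein, fell by 0.52 (SE 0.10, adjusted p = 0.00313; -0.35 on the array median, adjusted p = 0.150). Chtf18, of an alternative clamp loader, rose by 0.70 (SE 0.18, adjusted p = 0.0126). Rnaseh2a was not called at 3.41 (adjusted p = 0.0632), with replicate 4 at 4 µg/mL at -5.08 inside the area of low signal; masking that area gave 1.77 (adjusted p = 2.4e-05), a gene named after its values were seen.

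Of 7 genes of replication-coupled chromatin assembly tested, 2 rose and none fell (28.6% higher, median 0.26). Asf1b, a histone chaperone, rose by 0.70 (SE 0.14, limma adjusted p = 0.00342). Chaf1b, of chromatin assembly factor 1, rose by 0.45 (SE 0.13, adjusted p = 0.0168; 0.42 without replicate 3 at 4 µg/mL, adjusted p = 0.0502). Of 9 E2F and RB genes tested, 3 rose and 2 fell (33.3% and 22.2%, median 0.09). Rb1, the retinoblastoma protein that holds E2F factors inactive, rose by 0.79 (SE 0.21, adjusted p = 0.0129). E2f3 rose by 0.71 (SE 0.23, adjusted p = 0.0327), a call lost in 5 of the 8 fits without 1 array (without replicate 1, 2 or 3 at 4 µg/mL or replicate 1 or 2 at 16 µg/mL, 0.62 to 0.71, adjusted p 0.0659 to 0.0827). E2f1, an activating E2F factor, rose by 0.60 (1.82 ± 0.08 to 2.42 ± 0.12, SD, n = 4 each, SE of the difference 0.11, adjusted p = 0.00179). No rise in chromatin assembly or among E2F and RB genes was called without scaling or on the spike-ins. Tfdp1, the partner through which E2F factors bind DNA, fell by 0.76 (SE 0.18, adjusted p = 0.00673; -0.59 on the array median, adjusted p = 0.0843).

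Of 27 other genes of nucleotide metabolism tested, 11 rose and 2 fell (40.7% and 7.41%, median 0.27), against 23.5% and 16.8% of features with a symbol. Leaving out 1 array gave 5 to 10 rises: 5 without replicate 1 or 3 and 6 without replicate 2 at 4 µg/mL, and 7 without replicate 1 and 6 without replicate 4 at 16 µg/mL. With normexp correction 6 rose, and without the trend in the fit 7. Adsl, of purine synthesis, rose by 0.95 (0.20 ± 0.35 to 1.14 ± 0.18, SD, n = 4 each, SE of the difference 0.18, limma adjusted p = 0.00233; 0.25 with normexp correction, adjusted p = 0.180). Atic, which completes the purine ring, rose by 0.76 (3.30 ± 0.15 to 4.06 ± 0.06, SD, n = 4 each, SE of the difference 0.11, adjusted p = 0.000561). Both genes had no overlap between the doses. Cad, which starts pyrimidine synthesis, rose by 0.79 (SE 0.29, adjusted p = 0.0473), a call lost in 6 of the 8 fits without 1 array (all but replicate 1 or 4 at 16 µg/mL, 0.57 to 0.88, adjusted p 0.0583 to 0.125). Dck, which salvages deoxynucleosides, fell by 1.27 (SE 0.40, adjusted p = 0.0261) on a probe that only 1 array of the higher dose had well above background and that passed the filter only through the lower dose, with 0.17 after normexp correction (adjusted p = 0.544) and -0.31 with dim signals raised (adjusted p = 0.304). The Dck call was also lost without replicate 1 or 2 at 4 µg/mL (-1.25 to -1.15, adjusted p 0.0570 to 0.0746). The rises of this list, like those of the members, are relative to the rest of the array.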

How the data were processed

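Total RNA was labelled with Cy3 and hybridised to 1-colour Agilent arrays, per the labels' protocols. The submitters' processing notes name Agilent Feature Extraction 11.0.1.1. Per the file headers, the deposited intensity called the processed signal had its background subtracted and spatial trends removed array by array, without normalization between arrays; raw median intensities of spot and background stand beside it. The files' flags for background, saturation and outliers were used as deposited.

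Spots with outlier flags were set to missing, and the processed signal was log2-transformed and centred on the 75th percentile among non-control spots of its own array. Spots of a probe were averaged. A probe stayed in when 3 or more of the 4 arrays of either dose flagged it as well above background, and the brightest probe stood for its gene. Accessions were named through the RefSeq table of GRCr8, used for names and promoter windows and not for probe positions, because the files' build is another; 21109 of 45598 probes (46.3%) got a symbol. The 2 doses were compared over the 8 arrays with limma 3.58.1 (R 4.3.3; lmFit, eBayes with trend, two-sided), Benjamini-Hochberg adjusted over 13474 features, threshold 0.05; the fit was tested on simulated data. The number of arrays limits the precision, and nothing says whether replicates were separate cultures beyond the design's word biological, so p-values measure the spread between these arrays.

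The members, their roles and the neighbouring lists were chosen with earlier results of these data known. Every member is accounted for; array values are given for up to 3 called members with the largest rise and 3 with the largest fall in each role, for Gmnn, and for members whose probes disagree in sign, and from each neighbouring list up to 3 called genes in the commoner direction and 1 in the other. Rrm1, Rrm2, Rfc4 and the pairs of partners were added after their values were seen. Alternatives were the array median, no scaling, spike-in and quantile scaling, normexp background correction (offset 50), other filters, a floor, the mean of probes, masking of low-signal areas, no trend, a replicate block, and leaving out each array. Leaving out both arrays with a low-signal area was chosen after seeing the data.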

Additional observations from a re-analysis of the deposited data

Results flagged for a closer look

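Among the 82 sets of 4 arrays of a dose that were examined, 1 for each tested gene and dose, 3 had an array whose gap to its nearest neighbour exceeded the share of the range that Dixon's test allows; chance gives about 1 in 20 such sets. All 3 were replicate 4 at 4 µg/mL, and there it was the lowest array. Gins4 was at -0.38 on it and next at 0.86, Prim1 at -0.091 and next at 1.35, and Rfc4 at -1.71 and next at -0.23. The Prim1 probe lay in that array's area of low signal, and the Gins4 and Rfc4 probes did not. Without that array the differences were 0.34 for Gins4 (limma adjusted p = 0.0783), 0.20 for Prim1 (adjusted p = 0.255) and -0.94 for Rfc4 (adjusted p = 0.00117). The part of the array's quality in these values was not tested.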

How the results depend on the processing

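Scaling between the arrays moved the counts most, and Prim2 alone among the called members kept its call in all 21 alternatives. Without scaling, 0 members were higher and licensing had 2 lower, with a median of -0.64 over the members; Mcm2 was at -0.27, Mcm6 -0.24, Cdc45 -0.24, Gins2 -0.20, Pold2 -0.24, Rfc2 -0.10, Rfc5 -0.29 and Tk1 -0.24. On the spike-ins, 0 members were higher and 22 lower, with 5 lower in licensing, 4 in nucleotide supply and a median of -1.05; Cdt1 was at -0.17, Mcm2 -0.67, Mcm3 -1.11, Mcm6 -0.64, Mcm10 -1.09, Cdc45 -0.65, Gins1 -1.08, Gins2 -0.60, Gins3 -1.10, Pold1 -0.28, Pold2 -0.64, Pold3 -1.05, Rfc2 -0.50, Rfc5 -0.69, Lig1 -0.88 and Tk1 -0.65. These values follow from the shift of all features under the same scaling (-0.75 and -1.15). On the array median 3 members were lower, with 0 in nucleotide supply. With normexp correction 4 were lower, 0 in licensing and 1 among the polymerases, with Pole2 at 0.075; the cause was not tested. With probes well above background on all 8 arrays, 1 polymerase gene was lower, since Pole2 left the test. With no filter 4 members were lower and 1 in nucleotide supply, with 39505 features tested, 2146 higher and 2598 lower over all of them. Nucleotide supply had 1 lower with the mean of probes and 1 without the trend; the cause was not tested.

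Leaving out 1 array gave 2 to 12 members higher and 4 to 7 lower, with 1 to 2 lower in licensing, 1 to 2 in nucleotide supply and 2 in each fit among the polymerases. The fewest rises came without replicate 1 (2) or 3 (3) at 4 µg/mL or replicate 3 at 16 µg/mL (4). Leaving out both arrays with a low-signal area gave 12 higher and 8 lower. Replicate numbers paired the arrays at most in part: same-numbered arrays correlated at -0.22 to 0.40 in their deviations. Numbers 1 (0.25) and 2 (0.40) had their best partner in their own number, and 3 and 4 in each other's. With the replicate block, 10 members were higher and 8 lower, with 2 lower in licensing; Tk1 lost its call (adjusted p = 0.0514), and Orc2 (adjusted p = 0.0478) and Orc6 (adjusted p = 0.0471) gained one. Depth of signal limits the dim members, among which Orc2, Orc4, Orc6, Pole and Pole2 lacked the flag for well above background on some arrays.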
